A study of Homo sapiens with 12 samples.

Results

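The genes described here are 49 components of the machinery of mitosis: the kinases and cyclins of mitotic entry, the spindle checkpoint, the centromere and kinetochore, the spindle, the midzone and cytokinesis, and the proteins that trigger anaphase and mitotic exit. They were chosen by symbol, with no use of measured values in the rule, but with earlier results of these data known. All 49 were found among the 20308 genes of the expression table. RNA came from the prostate cancer cell line C4-2, which grows without androgen, in 2 versions: a control with empty vector, called NC, and cells that overexpress ALKBH5, called oeALKBH5, with no other treatment named. The ALKBH5 enzyme takes the methyl group off N6-methyladenosine (m6A) in RNA. The values below come from the input libraries, which were made from rRNA-depleted total RNA without m6A pull-down, 3 per group, in FPKM, a level scaled to transcript length and to the number of mapped fragments. Whether the replicates were separate cultures or how many clones each line holds is not given in the sources used here, so the p-values cover no more than the variation among these libraries, part or all of which may be technical.

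Mitosis begins when cyclin B and CDK1, switched on by CDC25 phosphatases and helped by PLK1 and Aurora A, drive chromosome condensation and spindle assembly. Kinetochores then attach chromosomes to microtubules, and the spindle checkpoint holds back CDC20 and the anaphase-promoting complex until every chromosome is attached. Once the checkpoint is satisfied, securin and cyclin B are destroyed, separase cuts cohesin, and the midzone directs cytokinesis. The mRNAs of these genes are made mainly in G2 and M phase, under the control of the MuvB complex with B-MYB and FOXM1, so in cycling cells their level follows both transcription and the share of cells in those phases. In RNA from whole cultures, fewer cells in a phase and less RNA per cell cannot be told apart.

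The 6 libraries summed to 511333 to 524905 FPKM, and their depth in reads is unknown. The cells had the profile of luminal prostate cancer: all 9 luminal markers were present in every library at 52.3 FPKM or more, with KLK3 (PSA) at 893 to 1020 FPKM. Of 4 neuroendocrine markers, CHGA and INSM1 were at 0 throughout and none reached 1 FPKM. The 3 basal markers together gave 1.58 to 4.95 FPKM in NC and 0 to 6.14 FPKM in oeALKBH5, the 6 fibroblast markers 4.05 to 13.1 and 4.08 to 28.1 FPKM, with DCN and LUM at 0. The 7 immune markers gave 0.521 to 2.80 FPKM in NC and 4.58 to 7.94 FPKM in oeALKBH5, and their part in the results was not tested. ALKBH5 itself stood at 64.9, 61.1 and 58.2 FPKM in NC and at 80.3, 74.3 and 72.5 FPKM in oeALKBH5, which did not pass the test (log2 fold change 0.30, SE 0.10, limma adjusted p = 0.114).

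For most mitotic genes no difference between the groups passed the test. Among the 49 members CENPE, the kinetochore motor, fell, no member rose, and 48 missed the threshold (limma, adjusted p under 0.05 over the 12757 genes whose mean reached 0.5 FPKM, all 49 members among them). That is 2.04% of the members called, all lower, where 5.45% of all tested genes were called, 2.43% lower and 3.02% higher. At an unadjusted limma p under 0.05, 10 of 49 members were lower, a larger share than the 10.3% of all tested genes. None was higher, beside 11.6% of all tested genes. The log2 fold change, oeALKBH5 minus NC on the log2(FPKM + 1) scale, was below 0 in 41 of 49 members and in 47.7% of all tested genes. Its median was -0.22 over the members and 0.02 over all tested genes, and single members ran from -1.12 to 0.27. In 8 members every oeALKBH5 library was below every NC library, which is 16.3% beside 13.0% of all tested genes. In none was every oeALKBH5 library above, a pattern held by 15.1% of all tested genes.

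**Figure D1:**
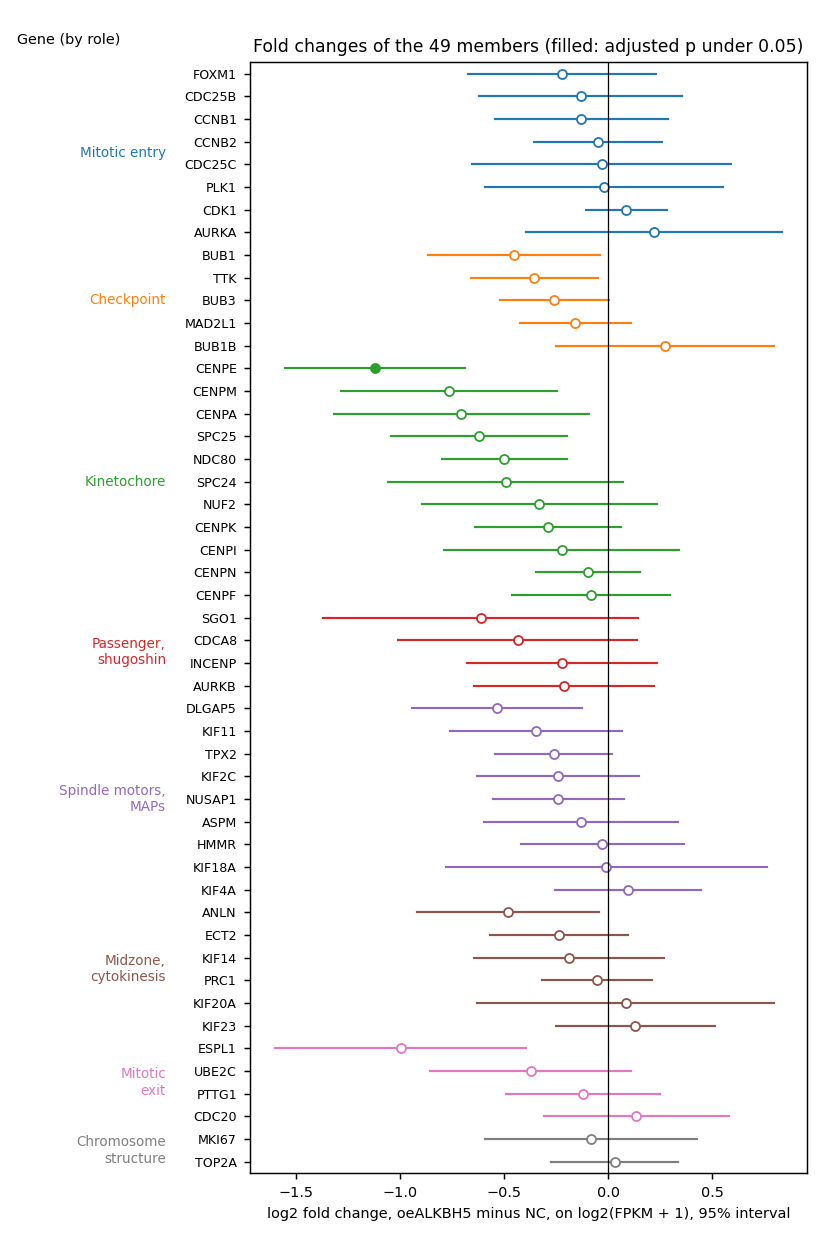
Log2 fold change of each of the 49 members (points) with its 95% interval from limma (lines), on the log2(FPKM + 1) scale, grouped by role and sorted within each role; a filled point passed the test over all genes. CENPE, at -1.12, is the only filled point, all 11 kinetochore genes lie left of 0, and the mitotic entry genes straddle it.

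The median of the members moved with the library left out, from -0.30 without NC replicate 1 to -0.16 without oeALKBH5 replicate 2. NC replicate 1 stood apart from the other NC libraries in these genes. It held the lowest of the 3 NC values in 41 of 49 members, and in 35.8% of all tested genes. This was not particular to the members. NC replicate 1 was also the lowest NC library in 47 of 75 other mitosis genes, a list described below. In a list of G1/S and replication genes, also described below, NC replicate 1 was lowest in 16 of 28. Relative to each gene's mean over the 6 libraries, the median member deviated by -0.11 (log2) in NC replicate 1, against 0.22 and 0.18 in NC replicates 2 and 3. In the oeALKBH5 libraries the same median was 0.04, -0.21 and -0.14 in replicates 1, 2 and 3, so NC replicate 1 lay below oeALKBH5 replicate 1. Over all tested genes these medians lay between -0.02 and 0.01 in the 6 libraries. In the other mitosis genes they were -0.05, 0.22 and 0.20 in NC replicates 1, 2 and 3. Without NC replicate 1 the median log2 fold change of the members was -0.30, and 45 of 49 were below 0. The groups did not overlap in 23 of 49, all lower, a larger share than the 18.0% of all tested genes. Without oeALKBH5 replicate 1 they did not overlap in 18 of 49, all lower, again a larger share than the 18.4% of all tested genes. Leaving out any other library gave 8 to 11 of 49 lower, beside 16.8% to 18.0% of all tested genes. It gave 0 to 2 of 49 higher, for which the share of all tested genes was not counted. NC replicate 1 was the lowest NC library in most members, and oeALKBH5 replicate 1 the highest of its group in 30. Leaving out either therefore moves many members towards lower values and groups apart by itself, so these counts are descriptions only. Leaving out NC replicate 1, CENPE kept its call (limma adjusted p = 0.0319) and UBE2C gained one (limma adjusted p = 0.0476), so 2 of 49 were called, beside 1.34% of all tested genes called lower. The 15 members that overlapped with all libraries and came apart on leaving out NC replicate 1 are BUB1, BUB3, CENPA, SPC24, INCENP, CDCA8, KIF11, TPX2, ASPM, ANLN, KIF14, CCNB2, CDC25B, PTTG1 and UBE2C. Values of ANLN, BUB1B, CDC25C, FOXM1, KIF20A, PLK1 and SPC25 are uncertain, since each overlaps another gene of the table and counting by strand is not stated.

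**Figure D2:**
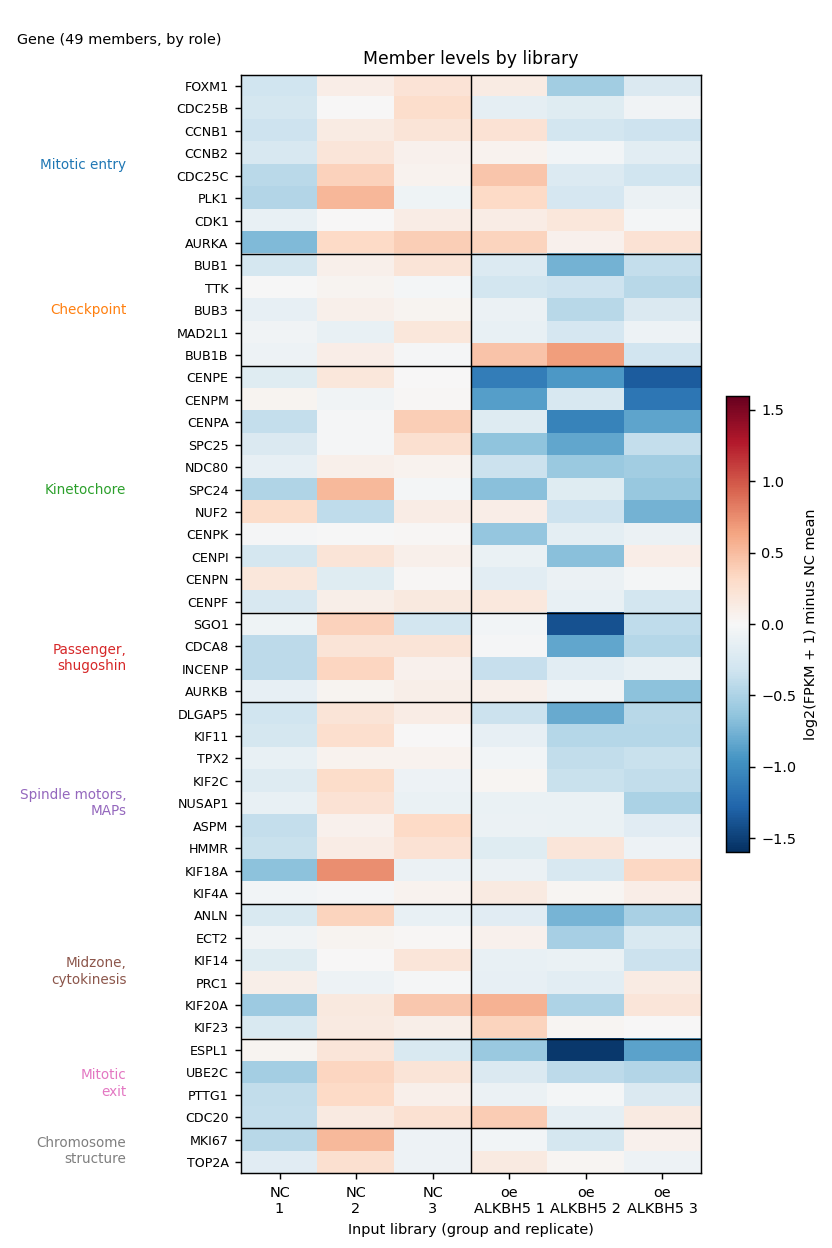
Level of each of the 49 members in each of the 6 input libraries, as log2(FPKM + 1) minus the mean of the 3 NC libraries (blue lower, red higher), with genes grouped by role. NC replicate 1 is pale blue through most rows, oeALKBH5 replicate 1 is mixed, and dark blue cells occur in the oeALKBH5 columns of CENPE, CENPM, SGO1 and ESPL1.

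The promoters of these genes share letters that the choice of members did not use. TTTGAA and TTTAAA are forms of the cell cycle homology region, the element bound by MuvB complexes, and CCAAT is the box bound by NF-Y. Sequences are shown because most members with a promoter entry hold such letters near their start. In RefSeq's promoter entries (GRCh38.p14, 250 bases before to 50 after a start), 42 members had 52 windows, and AURKA, BUB3, CENPM, FOXM1, TPX2, TTK and UBE2C had no entry. TTTGAA, searched on both strands, was in 33 of the 52 windows (63.5%) and in 15.2% of all 35116 windows. TTTAAA, which reads the same on both strands, was in 30.8% against 12.2%, and CCAAT, on both strands, in 76.9% against 34.6%. High shares of TTTGAA and CCAAT were not particular to the members. In the 79 windows of the other mitosis genes, TTTGAA was in 43.0%, CCAAT in 55.7% and TTTAAA in 11.4%. Matches of different motifs may share letters, and a match describes the sequence and is not a measured site. The median GC content was 61.3% in the members' windows and 58.7% in all windows. Of the 45 matches of TTTGAA in members, 20 began within 40 bases upstream of the start, in 18 genes. Positions were not counted over all windows or in the other lists, so this has no background to set it against. The 80 bases before the start are printed for 6 members, 5′ to 3′ on the gene's strand, with matches on either strand in capitals (ATTGG is CCAAT read on the other strand). The first 2 are genes whose groups did not overlap, and the other 4 are genes whose groups did.
CENPE (chr4:103198344-103198423, minus strand): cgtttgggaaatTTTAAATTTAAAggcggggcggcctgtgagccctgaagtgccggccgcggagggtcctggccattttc
ESPL1 (chr12:53268219-53268298, plus strand): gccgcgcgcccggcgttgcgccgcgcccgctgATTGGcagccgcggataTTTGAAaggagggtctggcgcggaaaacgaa
CCNB1 (chr5:69167070-69167149, plus strand): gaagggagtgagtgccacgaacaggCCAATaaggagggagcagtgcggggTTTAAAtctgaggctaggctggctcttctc
CCNB2 (chr15:59105066-59105145, plus strand): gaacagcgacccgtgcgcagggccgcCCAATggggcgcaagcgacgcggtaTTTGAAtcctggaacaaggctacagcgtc
PLK1 (chr16:23678809-23678888, plus strand): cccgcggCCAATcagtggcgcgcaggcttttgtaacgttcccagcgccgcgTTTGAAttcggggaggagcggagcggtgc
CDC20 (chr1:43358901-43358980, plus strand): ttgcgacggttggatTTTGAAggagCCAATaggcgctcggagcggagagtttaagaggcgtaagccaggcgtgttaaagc
Either form of the element was in at least 1 window of 5 of the 6 matched genes whose groups did not overlap (83.3%) and of 31 of the 36 whose groups did (86.1%). ESPL1 and PLK1, for example, both hold TTTGAA and CCAAT in the printed bases, and the groups were apart in ESPL1 and overlapped in PLK1.

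The genes of mitotic entry had log2 fold changes on both sides of 0. Some of their 95% intervals were wide, as in AURKA (-0.39 to 0.83) and CDC25C (-0.65 to 0.59). None of the 8 passed the test, the groups overlapped in all 8, and their median log2 fold change was -0.04. This median changed sign with the libraries used. Leaving out replicate 1 of NC gave -0.25 and of oeALKBH5 -0.15, whereas leaving out replicate 2 of NC gave 0.07 and replicate 3 of oeALKBH5 0.02. CDK1, the kinase that starts mitosis and the most abundant member, was at 277, 302 and 327 FPKM in NC (replicates 1, 2 and 3, the order used throughout) and at 328, 342 and 294 FPKM in oeALKBH5. Its groups overlapped, and the 95% interval of its log2 fold change ran from -0.10 to 0.28. CCNB1, which encodes cyclin B1, was at 99.9, 138 and 146 FPKM in NC and at 149, 103 and 100.3 FPKM in oeALKBH5. The lowest values of CCNB1 in the 2 groups were thus nearly equal, and so were the highest. FOXM1, the transcription factor of G2 genes, had the lowest fold change of this group and was at 35.5, 48.0 and 51.8 FPKM in NC and 48.6, 29.9 and 37.9 FPKM in oeALKBH5 (log2 fold change -0.22, 95% interval -0.67 to 0.23). AURKA, the spindle pole kinase Aurora A, was at 17.5 FPKM in NC replicate 1 and 36.7 and 38.7 FPKM in the other NC libraries, and at 37.8, 30.7 and 34.5 FPKM in oeALKBH5. Its log2 fold change of 0.22 became -0.14 without NC replicate 1. PLK1, which acts with Aurora A at spindle poles and kinetochores, was likewise lowest in NC replicate 1, at 25.7 FPKM, and highest in NC replicate 2, at 52.5 FPKM. The oeALKBH5 values of PLK1, from 29.6 to 45.0 FPKM, all lay between those 2. CCNB2, CDC25B and CDC25C had means between 7.24 and 56.4 FPKM in either group, and their log2 fold changes were -0.05, -0.13 and -0.03.

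In the spindle checkpoint, none of 5 genes passed the test, and their median log2 fold change was -0.26, or -0.16 without oeALKBH5 replicate 2. TTK, the kinase that recruits the checkpoint to unattached kinetochores, was at 22.4, 23.2 and 22.1 FPKM in NC and at 18.2, 17.7 and 16.4 FPKM in oeALKBH5. All 3 oeALKBH5 libraries were lower and the spread within each group was small, 22.6 ± 0.587 against 17.4 ± 0.960 FPKM (mean ± SD, n = 3 per group), but the difference did not pass the test (log2 fold change -0.36, SE 0.13, limma adjusted p = 0.165). BUB1, a kinase and scaffold of the checkpoint, had the lowest fold change of the group, -0.45 (SE 0.18, limma adjusted p = 0.189), and was at 30.4, 39.3 and 43.1 FPKM in NC and 31.8, 21.7 and 28.3 FPKM in oeALKBH5. The groups of BUB1 overlapped through NC replicate 1. BUB3, the most abundant of the 5, which carries BUB1 and BUB1B to kinetochores, was at 89.8, 104 and 101 FPKM in NC and 92.1, 71.5 and 83.4 FPKM in oeALKBH5. BUB1B, which encodes BUBR1, a subunit of the complex that blocks CDC20, had the highest fold change of all 49 members, 0.27. That value came from oeALKBH5 replicates 1 and 2, at 39.1 and 45.5 FPKM, whereas replicate 3, at 22.7 FPKM, was below all NC libraries at 26.6, 30.4 and 27.9 FPKM. MAD2L1, the checkpoint protein that binds CDC20, had a log2 fold change of -0.16, with overlapping groups.

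The centromere and kinetochore genes had the lowest median of the 8 roles, -0.49, and from -0.56 to -0.43 with 1 library left out. All 11 had negative fold changes, beside 47.7% of all tested genes. The groups did not overlap, lower, in 5 of the 11, beside 13.0% of all tested genes, and 1 was called lower, beside 2.43%. Whether this role differs from the others was not tested. CENPE (ENSG00000138778), a kinesin that carries chromosomes along microtubules to the spindle equator, was at 16.0, 21.2 and 18.6 FPKM in NC and at 8.08, 9.28 and 6.71 FPKM in oeALKBH5. The highest oeALKBH5 value was well under the lowest NC value. CENPE fell by 1.12 on the log2 scale (SE 0.19, limma adjusted p = 0.0134), to 0.432 of its NC mean in FPKM. An exact permutation test of the 6 libraries gave p = 0.1, two-sided, the smallest that 3 against 3 can give. The call was lost without NC replicate 2 (limma adjusted p = 0.059), NC replicate 3 (limma adjusted p = 0.0691) or oeALKBH5 replicate 3 (limma adjusted p = 0.0533), and its fold change over all settings ran from -1.22 to -1.01.

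CENPF, another large coiled-coil protein of the outer kinetochore and nuclear envelope, had overlapping groups. It was at 27.1, 34.7 and 36.4 FPKM in NC and 36.5, 29.8 and 26.3 FPKM in oeALKBH5, with a 95% interval of the log2 fold change from -0.46 to 0.30, beside -1.55 to -0.69 for CENPE.

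The NDC80 complex is the hook that grips the microtubule end, made of NDC80, NUF2, SPC24 and SPC25. NDC80 (ENSG00000080986) was at 31.9, 36.9 and 36.3 FPKM in NC and 27.4, 22.7 and 23.5 FPKM in oeALKBH5 (log2 fold change -0.50, SE 0.13, limma adjusted p = 0.0691). SPC25 was at 19.8, 23.2 and 28.2 FPKM in NC and 14.6, 12.8 and 17.8 FPKM in oeALKBH5 (log2 fold change -0.62, SE 0.19, limma adjusted p = 0.0955). In both genes all oeALKBH5 libraries were lower, and neither passed the test. SPC25 overlaps NOSTRIN in the genome, at a mean of 23.2 FPKM in NC and 29.3 FPKM in oeALKBH5, so the split of reads between them is uncertain. SPC24 and NUF2 had log2 fold changes of -0.49 and -0.33 with overlapping groups, and their NC values were widely spread, from 25.6 to 52.5 and from 22.1 to 36.6 FPKM. The 4 subunits therefore had the same sign, with mean levels in the same range, from 23.7 to 37.9 FPKM in NC and from 15.1 to 25.9 FPKM in oeALKBH5.

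Among the inner kinetochore genes, CENPM was at 21.2, 19.6 and 20.7 FPKM in NC and 10.7, 16.9 and 8.66 FPKM in oeALKBH5 (log2 fold change -0.76, SE 0.23, limma adjusted p = 0.0948). CENPM varied little between NC libraries and more between oeALKBH5 libraries, and it passed the test without oeALKBH5 replicate 2 (log2 fold change -1.01, limma adjusted p = 0.0366). CENPK was at 36.3, 36.4 and 37.3 FPKM in NC and 23.6, 32.8 and 34.2 FPKM in oeALKBH5 (log2 fold change -0.29, SE 0.15, limma adjusted p = 0.315), with groups that did not overlap by a small margin. Both belong to the constitutive centromere-associated network, the platform on which the outer kinetochore is built. CENPA, the histone H3 variant that marks the centromere, had means of 22.1 ± 6.19 FPKM (NC) and 13.3 ± 4.68 FPKM (oeALKBH5) with overlapping groups (log2 fold change -0.70, SE 0.27, limma adjusted p = 0.168). CENPN, the most abundant gene of this role, which reads CENPA nucleosomes, was at 129, 98.8 and 115 FPKM in NC and 101, 107 and 111 FPKM in oeALKBH5. For CENPN and CENPI the groups overlapped, and the log2 fold changes were -0.10 and -0.22.

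**Figure D3:**
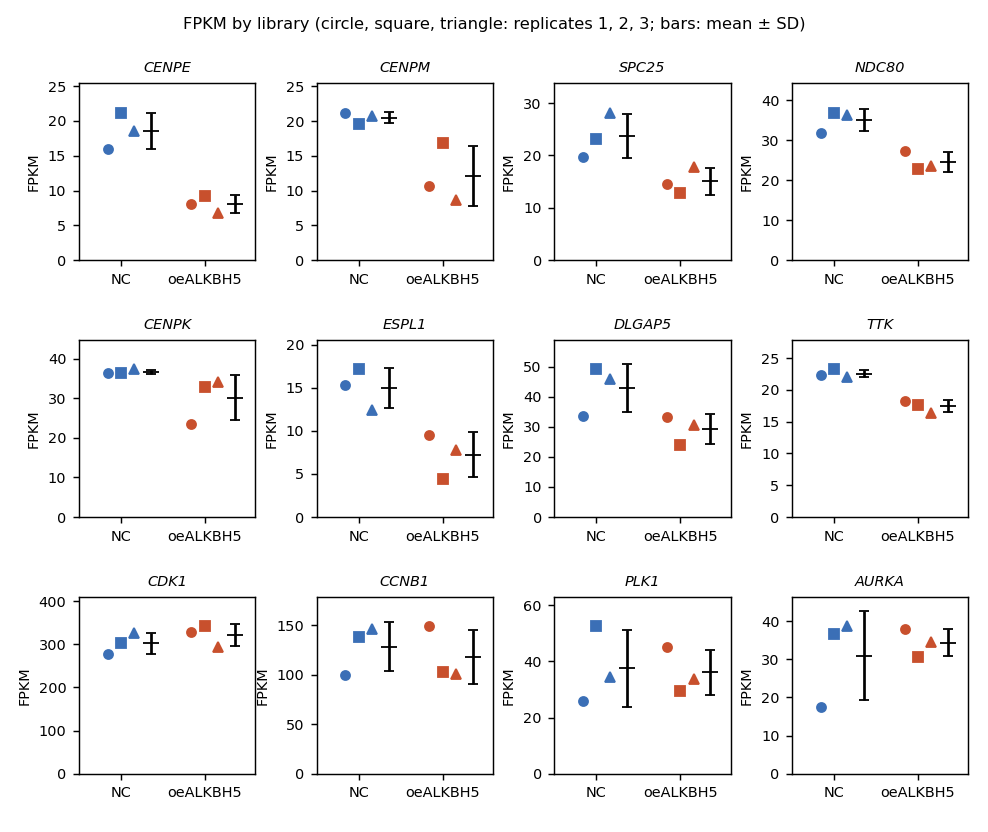
FPKM of 12 members in each input library (symbols for replicates, blue NC, orange-red oeALKBH5) with the mean ± SD of 3 libraries in black; every axis starts at 0. The first 8 panels are the members whose groups did not overlap, with CENPE at 16.0 to 21.2 against 6.71 to 9.28 FPKM, and the last 4 are kinases and cyclin B1 of mitotic entry, whose groups overlapped.

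The chromosomal passenger complex corrects wrong attachments, and shugoshin guards centromeric cohesion until anaphase. None of these 4 genes passed the test, the groups overlapped in all, and their median log2 fold change was -0.33, or -0.54 without NC replicate 1 and -0.50 without oeALKBH5 replicate 1. SGO1, which encodes shugoshin, was at 19.5, 26.9 and 16.6 FPKM in NC and 20.0, 7.19 and 15.4 FPKM in oeALKBH5 (log2 fold change -0.61, SE 0.33, limma adjusted p = 0.323). Replicate 2 contributed most to the low mean of SGO1 in oeALKBH5. AURKB, the kinase of the complex, was at 37.1, 42.0 and 43.6 FPKM in NC and 43.1, 39.3 and 25.5 FPKM in oeALKBH5, so only replicate 3 lay below NC. The scaffold INCENP and the subunit CDCA8 (borealin) had log2 fold changes of -0.22 and -0.43, and each was lowest among the NC libraries in replicate 1, at 19.0 and 14.6 FPKM.

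Of the 9 genes of spindle motors and microtubule-associated proteins, none passed the test, and their median log2 fold change was -0.24, or -0.10 without NC replicate 2. DLGAP5, a spindle protein that stabilises kinetochore fibres, was at 33.7, 49.1 and 46.0 FPKM in NC and 33.2, 23.8 and 30.8 FPKM in oeALKBH5 (log2 fold change -0.53, SE 0.18, limma adjusted p = 0.127). DLGAP5 had groups that did not overlap, though NC replicate 1 and oeALKBH5 replicate 1 nearly touched. NUSAP1, which bundles microtubules near chromosomes and was the most abundant of the 9, was at 121.6, 155 and 122.5 FPKM in NC and 122.6, 122.9 and 92.9 FPKM in oeALKBH5. The groups of NUSAP1 shared values near 122 FPKM and were set apart by 1 library in each direction. KIF11, the motor that pushes spindle poles apart, and TPX2, the activator of Aurora A, had log2 fold changes of -0.35 and -0.26, and KIF2C, a microtubule depolymerase, -0.24. The chromokinesin KIF4A varied little, with means of 12.4 ± 0.482 FPKM (NC) and 13.3 ± 0.546 FPKM (oeALKBH5). KIF18A, which dampens chromosome movements at the metaphase plate, was the least precise member, with 5.87, 17.0 and 9.12 FPKM in NC and a 95% interval of its log2 fold change from -0.78 to 0.77. ASPM and HMMR, which act at spindle poles, had log2 fold changes of -0.13 and -0.03.

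None of the 6 midzone and cytokinesis genes passed the test, and the groups overlapped in all 6, with a median log2 fold change of -0.12. Leaving out replicate 1 of NC gave -0.24 and of oeALKBH5 -0.18, whereas leaving out replicate 3 of NC gave -0.08 and replicate 2 of oeALKBH5 -0.04. ANLN, which encodes anillin, the scaffold of the contractile ring, was at 43.8, 66.8 and 47.8 FPKM in NC and 45.6, 30.7 and 35.9 FPKM in oeALKBH5 (log2 fold change -0.48, SE 0.19, limma adjusted p = 0.185). For ECT2, the exchange factor that activates RhoA at the division plane and the most abundant of the 6, values were 65.8, 70.5 and 69.2 FPKM in NC and 71.6, 47.2 and 57.6 FPKM in oeALKBH5. In both genes oeALKBH5 replicates 2 and 3 lay below all NC libraries and replicate 1 did not. KIF20A, a motor of the midzone, ran from 16.1 to 33.7 FPKM in NC and from 17.3 to 36.7 FPKM in oeALKBH5, and its log2 fold change of 0.08 became -0.21 without NC replicate 1. PRC1, which crosslinks midzone microtubules, and KIF23 and KIF14, kinesins of the midbody, had log2 fold changes of -0.05, 0.13 and -0.19.

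The genes of anaphase and mitotic exit gave different values within one short pathway, with a median log2 fold change of -0.25, or -0.48 without NC replicate 1 and -0.08 without NC replicate 2. ESPL1 (ENSG00000135476), which encodes separase, the protease that cuts cohesin, was at 15.3, 17.1 and 12.4 FPKM in NC and 9.51, 4.44 and 7.75 FPKM in oeALKBH5. All 3 oeALKBH5 libraries were lower, and the mean was 0.484 of that in NC, but the difference did not pass the test (log2 fold change -0.997, SE 0.27, limma adjusted p = 0.0686). PTTG1, which encodes securin, the inhibitor of separase, was at 117, 194 and 163 FPKM in NC and 144, 151 and 132 FPKM in oeALKBH5, with overlapping groups and a 95% interval of the log2 fold change from -0.49 to 0.25. The overlap of PTTG1 rested on NC replicate 1, without which all oeALKBH5 libraries were lower (log2 fold change -0.32, limma adjusted p = 0.17). Securin mRNA was thus the far more abundant of the pair per length in every library, and PTTG1 has near-identical copies in the genome, among which its reads may be split. For CDC20, the activator of the anaphase-promoting complex, the values were 31.8, 45.9 and 49.3 FPKM in NC and 55.7, 37.6 and 46.0 FPKM in oeALKBH5. UBE2C, the ubiquitin-conjugating enzyme of that complex, was at 36.7, 68.3 and 62.0 FPKM in NC and 45.7, 40.2 and 38.5 FPKM in oeALKBH5. Its 3 oeALKBH5 values lay close together, below NC replicates 2 and 3 and above NC replicate 1, and its log2 fold change moved from -0.37 to -0.64 without NC replicate 1.

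The 2 genes of chromosome structure, which are widely used as markers of dividing cells, had overlapping groups and did not pass the test. MKI67, which encodes the Ki-67 coat protein of mitotic chromosomes, was at 30.4, 59.9 and 39.2 FPKM in NC and 40.2, 34.1 and 43.7 FPKM in oeALKBH5. TOP2A, the topoisomerase that untangles sister chromatids, was at 51.2, 69.7 and 54.9 FPKM in NC and 64.4, 59.4 and 54.8 FPKM in oeALKBH5. In both genes the oeALKBH5 libraries lay inside the NC range. The 95% intervals of the log2 fold change were -0.59 to 0.43 for MKI67 and -0.27 to 0.34 for TOP2A.

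The other genes of mitosis, a list of 75 with further kinetochore, spindle, condensin and anaphase-promoting complex genes, were all tested. Its calls were 3 lower (4% of the list, beside 2.43% of all tested genes) and 1 higher (beside 3.02%), and 71 genes were not called. The median log2 fold change was -0.26. The groups did not overlap, lower, in 18 of 75 genes (24%), beside 13.0% of all tested genes. They did not overlap, higher, in 3 of 75, beside 15.1%. The 3 that fell are all kinetochore genes, but other kinetochore genes of the list were not called, and their signs differed. For example, every oeALKBH5 library was higher in MIS12 (log2 fold change 0.16) and lower in CENPU (log2 fold change -0.47). The lowest fold change of the list, -1.13, was that of PKMYT1, which is not a kinetochore gene and was not called. ZWINT, which links the outer kinetochore to the checkpoint, was at 81.7, 107 and 85.2 FPKM in NC and 56.5, 54.4 and 52.0 FPKM in oeALKBH5 (log2 fold change -0.73, SE 0.12, limma adjusted p = 0.0116). DSN1, a subunit of the MIS12 complex, was at 28.9, 30.6 and 27.6 FPKM in NC and 19.8, 15.9 and 15.8 FPKM in oeALKBH5 (log2 fold change -0.73, SE 0.15, limma adjusted p = 0.0249). CENPO, an inner kinetochore gene, was at 29.4, 25.1 and 28.2 FPKM in NC and 17.0, 14.7 and 11.8 FPKM in oeALKBH5 (log2 fold change -0.90, SE 0.17, limma adjusted p = 0.0205). It overlaps ADCY3, at a mean of 14.5 FPKM in NC and 15.2 FPKM in oeALKBH5, so its share of reads is uncertain. In each of these 3 genes the groups were well apart. CDC27, a subunit of the anaphase-promoting complex, rose, with means of 45.5 ± 4.09 FPKM (NC) and 67.3 ± 8.95 FPKM (oeALKBH5) (log2 fold change 0.55, SE 0.13, limma adjusted p = 0.0442), and has close copies in the genome that may share its reads. Leaving out 1 library at a time, DSN1 and CENPO kept their calls only without oeALKBH5 replicate 1, CDC27 only without oeALKBH5 replicate 2 (limma adjusted p = 0.04998), and ZWINT lost its call only without oeALKBH5 replicate 3 (limma adjusted p = 0.053). CDC27 also lost its call under median scaling (limma adjusted p = 0.0505) and with no filter on low values (limma adjusted p = 0.0849). None of the 4 was called when limma's intensity trend was left out (adjusted p from 0.0537 to 0.115).

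Genes of G1/S and replication, which are switched on earlier in the cycle, under E2F control, had a lower median than the mitotic genes. In this list 13 of 28 tested genes were called lower (46.4%) and none higher, beside 2.43% and 3.02% of all tested genes. The median log2 fold change was -0.64, and the groups did not overlap, lower, in 23 of 28 beside 13.0% of all tested genes. The G1/S genes and the mitotic members also differed in how the libraries of the 2 groups lay against each other. Within the groups the extremes were alike. In both lists NC replicate 1 had the lowest median of NC, and oeALKBH5 replicate 1 the highest and replicate 2 the lowest of oeALKBH5. In the G1/S genes the median deviation from each gene's mean was 0.21, 0.33 and 0.36 in the NC libraries and -0.15, -0.41 and -0.35 in the oeALKBH5 libraries, so that no library of one group reached the other. In the mitotic members NC replicate 1 lay among the oeALKBH5 libraries. Their promoters differed as well: TTTGAA was in 1 of 30 windows of the G1/S genes (3.33%), against 33 of 52 in the members, whereas CCAAT was in 63.3% and 76.9%. These lists were compared by their counts and medians, and the difference between them was not tested. Both were chosen with earlier results of these data known, so their shares are descriptions only.

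**Figure D4:**
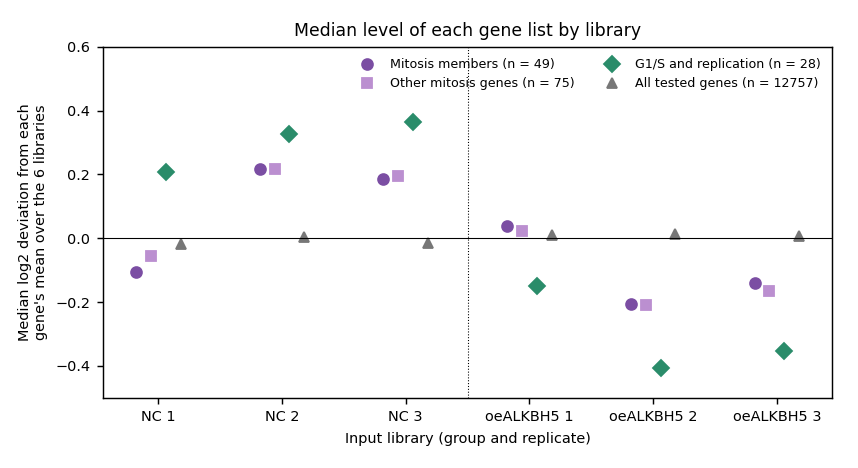
Median over each gene list of the log2(FPKM + 1) deviation from each gene's mean over the 6 input libraries, by library. The G1/S genes are above 0 in all 3 NC libraries and below 0 in all 3 oeALKBH5 libraries, whereas the mitotic members are at -0.11 in NC replicate 1 and at 0.04 in oeALKBH5 replicate 1.

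**Figure D5:**
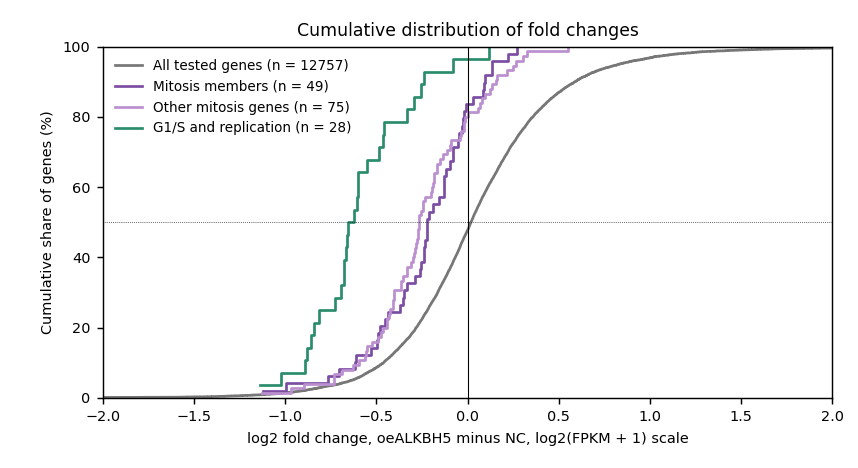
Cumulative share of genes against log2 fold change (log2(FPKM + 1) scale, axis limited to -2 to 2) for all tested genes, the 49 members, 75 other mitosis genes and 28 genes of G1/S and replication. The members cross 50% at -0.22, the other mitosis genes at -0.26 and the G1/S genes at -0.64, against 0.02 for all tested genes.

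The low values of NC replicate 1 were not even across the members. The ratio of NC replicate 1 to the mean of the other NC libraries was under 0.8 in 29 of 49 members (59.2%) and in 21.2% of all tested genes, and its median was 0.765 and 0.977. It was lowest in KIF18A (0.449), AURKA (0.463), KIF20A (0.527), UBE2C (0.563), SPC24 (0.582) and PLK1 (0.592). It was above 1 in ESPL1 (1.04), CENPM (1.05), PRC1 (1.11), CENPN (1.21) and NUF2 (1.35). CENPE, with 16.0 FPKM in NC replicate 1 against 21.2 and 18.6 FPKM, was lower there too, but far above its oeALKBH5 values.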

How the data were processed

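The authors deposited 1 value per gene and library for the 6 input libraries. The table names no unit; FPKM follows from the values and from the tools named in the submitters' processing notes, which list cutadapt 1.9.3, HISAT2 2.0.4, Cufflinks and Cuffdiff and the build hg19 without role or order. Read counts were not used here, so absolute depth is unknown. Ensembl identifiers were matched to symbols in a gene name table, and 49 of 49 members were found. No member had a value above 0 and under 1e-06, the mark of a failed estimate. Whether counting used strand is not given in the sources used here, and 7 members overlap another gene of the table (RefSeq). Values were tested as log2(FPKM + 1) by limma (version 3.58.1, R 4.3.3), using its intensity trend and Benjamini-Hochberg adjustment over the 12757 genes whose mean reached 0.5 FPKM. Alternatives changed the pseudocount, filter, scaling, trend, replicate block and libraries. The steps were tested on simulated data. Python 3.11.15 was used for the rest. The members and lists were chosen with earlier results of these data known. All 6 values are given for members called, with groups apart, or with the largest change or highest mean of a role, and for AURKA, BUB1B, CCNB1, CDC20, CENPF, UBE2C and others named after their values were seen. The m6A peaks of the IP libraries and the length of the proteins were not analysed here.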

Additional observations from a re-analysis of the deposited data

How the results depend on the processing

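The median log2 fold change of the members kept its sign in all 13 alternatives, from -0.30 to -0.16. The count of members called was 1 in each of the 7 that kept all libraries, and 0 to 2 when 1 library was left out. Of the other mitosis genes, 4 were called, 0 without the intensity trend, 2 with the replicate block, 3 under median scaling and 3 with no filter (CDC27 lost in both), and 0 to 4 when 1 library was left out. An equal count did not mean the same genes: the 4 called without NC replicate 1 included ZWINT but not CENPO, DSN1 or CDC27. Whether same-numbered replicates were paired is not given in the sources used here. Over all tested genes their deviations correlated at -0.02, -0.02 and 0.03, which cannot exclude a shared batch that touched few genes. Under the block CENPE kept its call (adjusted p = 0.0366), and DSN1 and CDC27 lost theirs. Signs changed in 34 of 689 values of single genes, all in 17 uncalled members (adjusted p of 0.524 or more). With all libraries these were KIF18A at a pseudocount of 0.1 (0.00064) and HMMR under quantile normalization (0.0052). With 1 library left out, the log2 fold changes of these genes ran as follows: ASPM -0.32 to 0.032, AURKA -0.14 to 0.42, AURKB -0.36 to 0.012, CCNB2 -0.17 to 0.047, CDC20 -0.052 to 0.28, CDC25B -0.27 to 0.0088, CDC25C -0.27 to 0.16, CENPF -0.21 to 0.023, CENPI -0.39 to 0.0011, HMMR -0.21 to 0.091, KIF18A -0.33 to 0.36, KIF20A -0.21 to 0.37, MKI67 -0.30 to 0.18, PLK1 -0.25 to 0.25, PRC1 -0.15 to 0.0011, PTTG1 -0.32 to 0.041, TOP2A -0.057 to 0.16. Depth is unknown, and KIF18A had the largest SE of the members. The cause of these changes was not tested.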
